A study of Homo sapiens with 12 samples.

Results

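The transcriptome of K-562 cells after 24 h in Si-711 was compared with that of untreated K-562 cells across every gene that reached a value of 10 or more in 3 or more of these groups' 6 libraries. This rule kept 14533 of 51112 genes. K-562 is an established line from a human leukemia in blast crisis, in which the fused kinase BCR-ABL1 is active and globins of the embryo and fetus are made, and Si-711 is a compound that the series names as an inhibitor of both sirtuin 1 and sirtuin 2. Untreated cells were growing exponentially when sampled, and the other group had been kept for 24 h with 5 µM Si-711 in the same serum-supplemented RPMI medium, with 3 biological replicates in each group. Polyadenylated RNA was sequenced with strand-specific libraries, and 6 more libraries taken 8 h and 48 h after addition of the compound served for comparison. No vehicle libraries or untreated libraries of the later times were used, so exposure and time in culture cannot be told apart. The deposited values are gene counts normalized with DESeq2 by the authors, called normalized counts below, so a change common to the bulk of the transcriptome would be scaled away.

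Sirtuins remove acetyl and other acyl groups from lysines of histones, transcription factors and metabolic enzymes, and they consume NAD in doing so. In leukemia cells of this kind the BCR-ABL1 kinase drives STAT5 and MYC activity and proliferation, while GATA1 and its partners maintain a partial red cell program. The amount of RNA per cell is not known in bulk samples, so fewer cells with a transcript and less transcript per cell cannot be told apart.

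Untreated libraries summed to 31387546 to 31718907 normalized counts and 24 h libraries to 27070528 to 28256228. On the first principal component of the 6 libraries, which held 60.6% of the variance, the untreated libraries lay between 54.5 and 65.6 and the 24 h libraries between -71.9 and -49.5. 24 h replicate 1 stood somewhat apart from the other replicates, with Pearson's r across genes of 0.966 and 0.968 to them, where they correlated at 0.976 with each other. The mitochondrial genome gave 3.44 to 3.76% of each untreated total and 5.11 to 6.68% of each 24 h total. The markers of K-562 were present in all 6 libraries, with 5719, 5994 and 6263 normalized counts of GATA1 and 6412, 6488 and 5603 of LMO2 in untreated cells. The labels call the cells lymphoblasts, but MS4A1 and CD8A, which define B cells and cytotoxic T cells, were at 0 in all 6 libraries, as were the platelet gene PF4 and the mast cell gene CPA3.

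At 24 h, 3457 of 14533 genes rose (23.8%) and 3832 fell (26.4%), with limma's moderated test on log2(value + 1) and a Benjamini-Hochberg adjusted p under 0.05. The rises were larger than the falls over all called genes, but among abundant genes 2-fold falls outnumbered 2-fold rises, as given below. Among the called genes, 1692 rose by 2-fold or more (11.6% of those tested) and 832 fell by as much (5.72%), and the median size of the log2 fold change was 0.98 for rises and 0.64 for falls. All 24 h libraries lay above all untreated libraries for 4226 genes (29.1%) and below them for 4656 (32%). The split by direction depended on scaling. With equal totals, which moved the median log2 fold change of all tested genes from 0.00 to 0.18, 4663 genes rose and 2656 fell, and of these 2206 and 513 by 2-fold or more. 24 h replicate 1 was the most extreme of the 24 h libraries for 3898 of the 7289 called genes, replicate 2 for 2339 and replicate 3 for 1035. Without replicate 1, 6249 of the 7289 called genes were called in the same direction. Members of the gene lists used below were chosen with earlier results of these data known. Their counts and promoter shares therefore describe the chosen genes and do not test a pathway. The background for each list count is the 23.8% that rose and the 26.4% that fell over all tested genes.

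**Figure D1:**
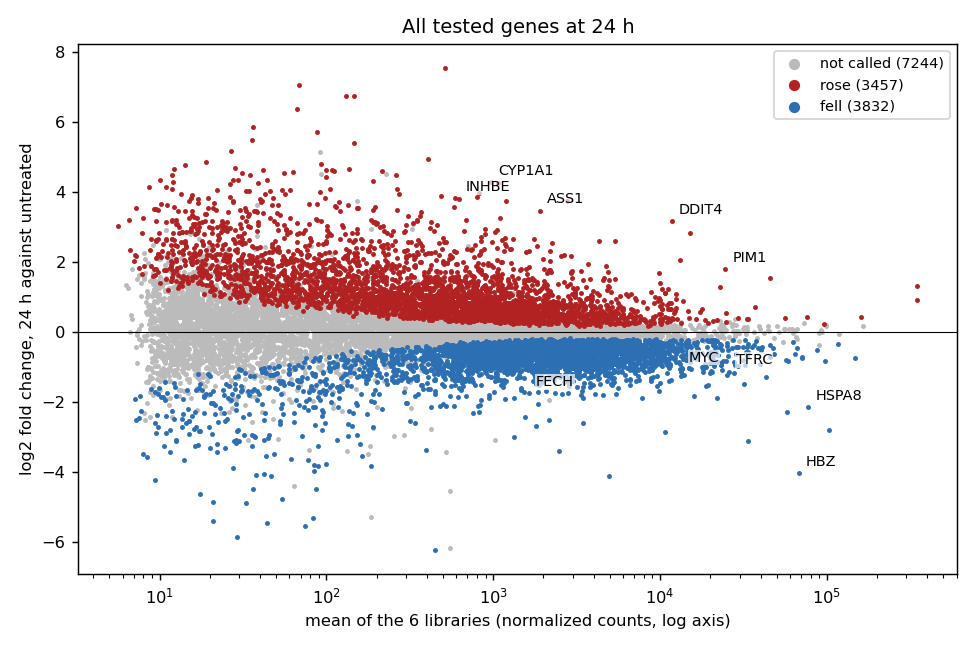
Each point is 1 of the 14533 tested genes, with its mean over the 6 libraries on a log axis and its log2 fold change at 24 h against untreated cells. Red genes rose and blue genes fell at an adjusted p under 0.05, and the labels mark genes described in the text. Falls dominate among abundant genes and rises among genes of low level.

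Direction went with expression level. Among the 1205 genes with a mean of 5000 or more over the 6 libraries, 156 rose and 691 fell. By contrast, among the 2029 genes with a mean of 50 to 200, 661 rose and 202 fell. By 2-fold or more, 23 rose and 90 fell at a mean of 5000 or more, and 179 rose and 246 fell at 1000 to 5000. At lower levels rises led, with 467 and 193 at 200 to 1000, 495 and 147 at 50 to 200 and 528 and 156 below 50. The share of the genes that fell in each library's total was 54.2 to 54.3% before and 36.7 to 40.2% after treatment, and those that rose went from 12.2 to 12.5% to 22.4 to 25.2%. Of 12154 protein-coding genes, 2905 rose and 3621 fell. Of 1679 genes annotated as long noncoding RNAs, which were expressed at lower levels, 392 rose (23.3%, near the 23.8% over all genes) and 128 fell (7.62%), with a median log2 fold change of 0.33.

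Of the sirtuin genes, SIRT1, which encodes the nuclear deacetylase named as a target of Si-711, fell from 1560, 1696 and 1380 normalized counts to 994, 986 and 1011. The groups did not overlap, and the log2 fold change was -0.63 (SE 0.15, adjusted p = 0.00304). SIRT6, a chromatin deacylase, fell from 888, 965 and 1129 to 729, 596 and 646 (-0.59, adjusted p = 0.00217). SIRT5, a mitochondrial desuccinylase, rose from 505, 481 and 327 to 715, 696 and 731 (0.73, adjusted p = 0.00433). SIRT3, SIRT4 and SIRT7 did not pass the test, with log2 fold changes of 0.25, 0.06 and -0.08. The other named target was not analysed here. In the enzymes that acetylate lysines, 8 of 11 fell and 0 rose, among them EP300, which was at 1893, 2362 and 2721 in untreated cells and at 729, 1197 and 1382 at 24 h (-1.11, adjusted p = 0.00272), and CREBBP, its close relative (-0.69, adjusted p = 0.000251). Of the 11 zinc-dependent deacetylases, 5 rose and 2 fell, with HDAC7 going from 2565, 2739 and 2968 to 4895, 5214 and 4887 (0.86, adjusted p = 6.98e-06). Among genes of NAD metabolism, 5 of 16 rose and 2 fell, where 23.8% of all tested genes rose and 26.4% fell. QPRT, of the tryptophan route of NAD synthesis, rose (0.76, adjusted p = 3.38e-05), and NADSYN1, which makes the final amidation step, rose too (0.69, adjusted p = 1.25e-05).

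The red cell program of K-562 was reduced, and of all gene lists the globins had the lowest median. All but 1 of the 10 tested globin genes fell, with a median log2 fold change of -2.83. HBZ, the embryonic zeta globin (GRCh38 chromosome 16, 152687 to 154503, plus strand), was at 153393, 163132 and 68308 normalized counts in untreated libraries and at 8072, 5488 and 8706 at 24 h (-4.04, SE 0.37, adjusted p = 3.18e-06). Untreated replicate 3 held less globin RNA than the other untreated libraries, yet it stayed well above every 24 h library. AHSP, the chaperone that stabilizes free alpha globin, went from 196, 157 and 78.7 to 15.1, 6.75 and 8.73 (-3.67, adjusted p = 5.29e-05; -3.00 with 8 added to each value and -4.53 with quantile normalization). The duplicated alpha and gamma globin genes share most of their sequence, so how Salmon divided reads within each pair is uncertain.

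In heme synthesis, 6 of 9 enzymes and 5 of 9 transporters and partners fell and 0 rose. FECH, which inserts the iron, fell from 2688, 3012 and 1868 in untreated cells to 561, 857 and 818 at 24 h (-1.75, SE 0.24, adjusted p = 5.26e-05), and ALAS2, the erythroid first enzyme, from 3849, 3376 and 1464 to 936, 1086 and 978 (-1.42, adjusted p = 0.000866). The promoter of ALAS2 is shown because it holds the letters AGATAA, the core that GATA factors bind, here on the opposite strand as TTATCT in capitals. It is taken from RefSeq on GRCh38.p14, chrX:55030978-55031227, minus strand, the 250 bases before the start.
ALAS2: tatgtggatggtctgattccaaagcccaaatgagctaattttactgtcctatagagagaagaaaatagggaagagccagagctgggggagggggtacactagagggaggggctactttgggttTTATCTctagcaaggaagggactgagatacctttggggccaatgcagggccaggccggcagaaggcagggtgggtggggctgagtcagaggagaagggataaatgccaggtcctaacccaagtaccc
AGATAA occurred on either strand in this window for 3 of 14 matched heme genes (21.4%) and for 4.97% of the 10511 tested genes whose promoter was in the table. The other genes with a match, BACH1 and CPOX, did not pass the test (0.05 and 0.48).

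The red cell membrane followed. Of 9 tested skeleton genes, 8 fell, and so did 4 of 5 transporters and 7 of 15 surface antigens, of which 3 rose. SLC4A1, the anion exchanger band 3 (GRCh38 chromosome 17, 44248385 to 44268141), fell from 502, 433 and 116 in untreated libraries to 13.7, 19.1 and 28.6 at 24 h (-3.84, SE 0.64, adjusted p = 0.000295; -4.50 without untreated replicate 3). AQP1, a water channel, fell from 683, 727 and 359 to 81.5, 104 and 92.7 (-2.59, adjusted p = 6.33e-06). CD44, the hyaluronan receptor listed with the surface antigens, moved the other way, from 179, 248 and 290 to 1376, 1662 and 1291 (2.61, adjusted p = 4.46e-06). In the iron list 3 of 15 genes rose and 7 fell, but 4 fell with equal totals or without untreated replicate 2 and 3 with quantile normalization, and of 5 uptake genes 1 rose and 3 fell. TFRC, the transferrin receptor, was at 35631, 35812 and 34631 and then at 13623, 16407 and 18741 (-1.13, adjusted p = 6.56e-06), and STEAP3, the endosomal ferrireductase, fell by 1.28 (adjusted p = 1.99e-05).

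The transcription factors behind this program did not all fall. GATA1, its central activator, was at 6248, 7518 and 6245 at 24 h and did not pass the test (0.15, adjusted p = 0.247), nor did its partner LMO2 (-0.13, adjusted p = 0.215). KLF1, the activator of adult erythroid genes, fell from 7687, 7737 and 6742 to 2149, 3786 and 2982 (-1.35, adjusted p = 0.000244), and TAL1 from 5849, 5841 and 4327 to 1896, 2477 and 2747 (-1.17, adjusted p = 8.36e-05). GFI1B, a transcriptional repressor that acts within the red cell and platelet lineages, fell with them (-1.24, adjusted p = 0.000113). Its paralog GFI1, a transcriptional repressor that acts within granulocytic and lymphoid cells, rose from 52.4, 64.4 and 64.5 to 520, 367 and 386 (2.78, SE 0.21, adjusted p = 1.03e-06). Every 24 h library exceeded the highest untreated value of GFI1 several times over. EPOR, the erythropoietin receptor, fell from 1022, 987 and 730 to 283, 453 and 386 (-1.30, adjusted p = 0.00112).

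Some genes of other blood lineages rose. In the granulocyte and monocyte list, 16 of 24 tested members rose and 0 fell, 13 of them by 2-fold or more, and the median was 1.45. The list names 41 genes, of which those with low untreated levels passed the filter only through their 24 h values. With no filter 18 of 37 rose, with a median of 1.20. ITGAM, the integrin CD11b, was at 23.9, 62 and 26.9 in untreated libraries and at 226, 428 and 349 at 24 h (3.20, adjusted p = 4.87e-05). ANPEP, the myeloid surface peptidase CD13, rose from 32.3, 24.1 and 47.4 to 325, 222 and 200 (2.83, SE 0.26, adjusted p = 3.75e-06), and SPI1, the transcription factor PU.1, from 312, 278 and 565 to 1264, 1037 and 1058 (1.60, adjusted p = 6.74e-05). CEBPA, a factor of granulocyte progenitors, did not pass (0.06, adjusted p = 0.855). CD14 and CSF1R, which define monocytes, stayed at 10.2 normalized counts or less in all 6 libraries. KIT, the stem cell factor receptor, was at 37.5, 42.5 and 98.2 and then at 682, 490 and 500 (3.33, adjusted p = 3.18e-06), while of the mast cell genes TPSAB1 and CPA3 were at 2.86 or less and MS4A2 was at 8.03, 5.41 and 0 in untreated libraries and at 28.2, 0 and 16.4 at 24 h, where the groups overlapped. Of 22 megakaryocyte and platelet genes 12 were tested, of which 5 rose and 1 fell. That 1 was TUBB1, the beta tubulin of platelets (-2.35, adjusted p = 0.02), whose call was lost without 24 h replicate 1 (-1.55), untreated replicate 1 (-2.08) or untreated replicate 2 (-2.20), and whose value was -2.98 without 24 h replicate 2. ITGA2B, the platelet integrin chain, rose from 62.9, 124 and 110 to 740, 1090 and 644 (3.07, adjusted p = 1.92e-06). Of 19 lymphocyte genes 7 passed the filter and 5 of these rose, 3 where a mean of 50 was required, and with no filter 5 of 17 rose, with a median of 0.97. The filter selects for high 24 h values here as well. The 19 listed genes summed to 228, 268 and 529 in untreated libraries and to 1633, 2433 and 1573 at 24 h. CORO1A, an actin regulator of leukocytes, led this list with SLAMF6 and went from 10.1, 30 and 71 to 497, 579 and 411 (4.08; 3.38 without untreated replicate 1 and 4.73 without untreated replicate 3). The part of other cells in these values was not tested.

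**Figure D2:**
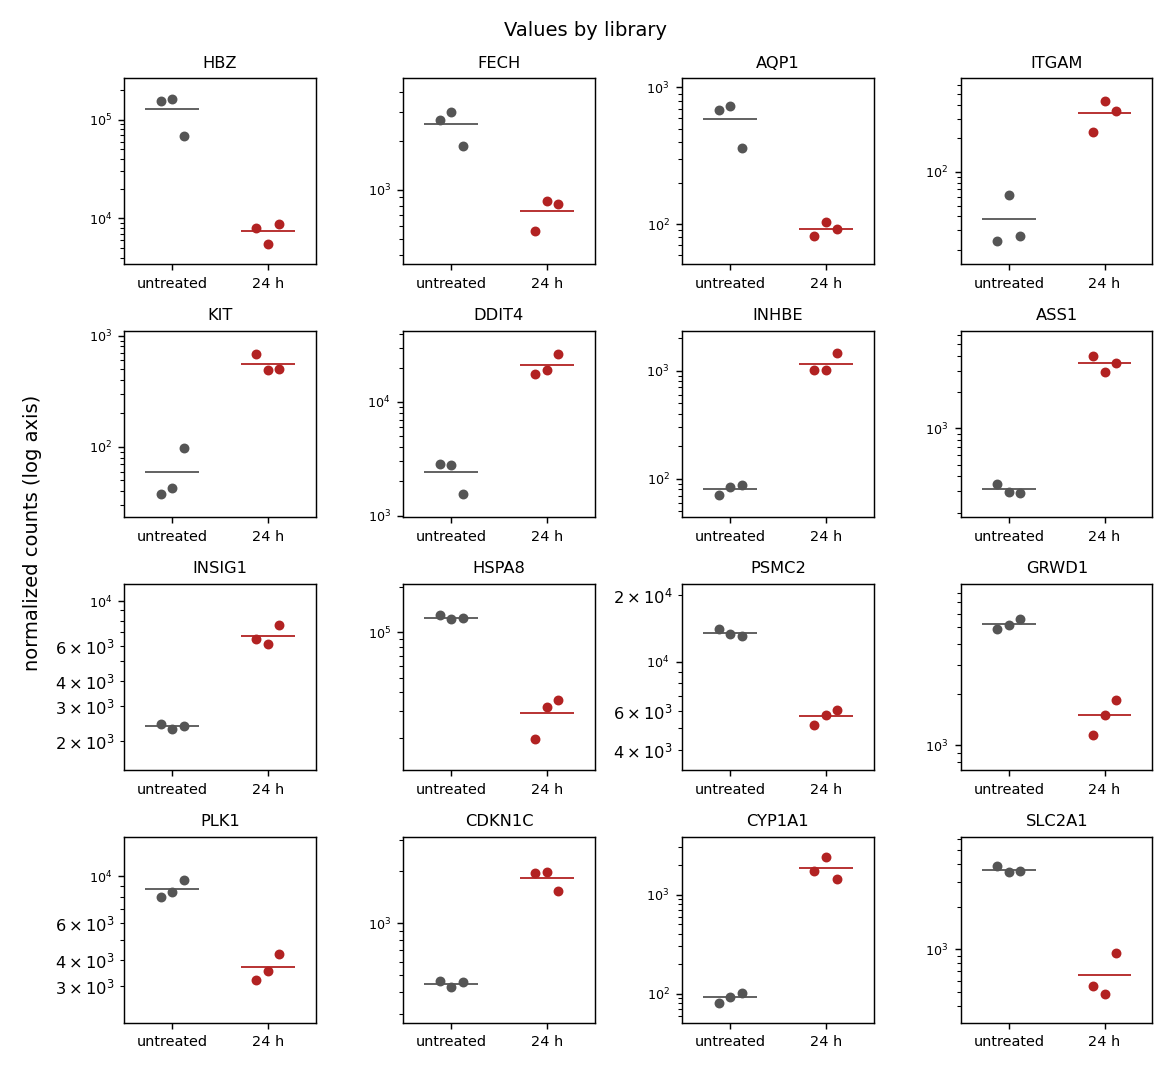
Normalized counts of 16 genes in each library on log axes, untreated in gray and 24 h in red, with points for the 3 replicates and a line at their mean. The untreated and 24 h libraries do not overlap in any panel, but the genes were chosen among those that passed the test. Over all tested genes, all 24 h libraries lay above all untreated libraries for 29.1% and below them for 32%.

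Most genes listed for the integrated stress response rose. In this pathway, phosphorylation of the initiation factor eIF2 slows translation and raises the transcription factor ATF4, which turns on genes for amino acid synthesis, transport and tRNA charging. Of 27 tested members, 21 rose, 0 fell and the median log2 fold change was 1.28. The lowest member, a transcription factor at -1.10, did not pass the test but was called as a fall without 24 h replicate 1. With median centring, quantile normalization or the replicate block, 1 member also fell. Among its transcription factors, ATF4 itself was at 10207, 9931 and 8426 in untreated cells and at 15818, 14439 and 15808 at 24 h (0.69, adjusted p = 6.56e-05), and ATF3 went from 204, 225 and 185 to 879, 766 and 999 (2.10, adjusted p = 7.61e-07). INHBE, an activin subunit (GRCh38 chromosome 12, 57452323 to 57459280), rose from 70.7, 83.5 and 87.2 to 1020, 1008 and 1449 (3.82, SE 0.20, adjusted p = 9.07e-08), and each 24 h library stood more than an order of magnitude above each untreated one. ADM2, a peptide hormone of the adrenomedullin family, rose from 55.1, 58.9 and 38.9 to 236, 307 and 413 (2.60, adjusted p = 1.61e-05).

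Of the enzymes that make amino acids, 10 of 19 rose and 2 fell. ASS1, argininosuccinate synthase, the entry into arginine synthesis (GRCh38 chromosome 9, 130444929 to 130501274), was at 346, 294 and 294 in untreated libraries and at 3994, 2955 and 3499 at 24 h (3.47, SE 0.15, adjusted p = 2.28e-08). In the serine branch, PHGDH, its first enzyme, went from 62.2, 73.1 and 70.1 to 292, 400 and 411 (2.39, adjusted p = 3.27e-05) and PSAT1, its second, from 1364, 1370 and 1385 to 4442, 4291 and 4689 (1.70, adjusted p = 1.03e-07). CTH, which makes cysteine from cystathionine, rose from 378, 357 and 421 to 2224, 1776 and 1835 (2.33, adjusted p = 8.39e-08), and GPT2, mitochondrial alanine transaminase, rose as well (2.67, adjusted p = 1.09e-07). SLC7A11, the cystine importer, rose from 656, 706 and 612 to 2297, 2100 and 2337 (1.77, adjusted p = 1.09e-07), while SLC38A7 and SLC36A1, lysosomal amino acid transporters, fell by 1.21 and 1.40 (adjusted p = 0.000301 and 7.49e-05). The aminoacyl-tRNA synthetases split by compartment: 8 of 20 cytosolic ones rose and 6 fell, whereas 1 of 15 mitochondrial ones rose and 9 fell. Over all tested genes 23.8% rose and 26.4% fell. The split by compartment itself was not tested, and with equal totals 8 synthetases fell in place of 15. WARS1, for tryptophan, went from 7993, 7525 and 8272 to 16161, 15453 and 18900 (1.08, adjusted p = 4.89e-06), and FARSA, a subunit of the phenylalanine enzyme, from 10440, 10641 and 11535 to 4888, 5989 and 6985 (-0.88, adjusted p = 3.05e-05).

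ATF4 binds with C/EBP partners to sites built around TGATGNAA. These letters were searched on both strands of the 250 bases before the start, and 1.32% of the 10511 tested genes with a promoter in the table held them, against 2 of 21 matched stress response genes (9.52%) and 3 of 13 matched amino acid synthesis genes (23.1%). The promoters of the matched genes that rose, ATF3 and ASNS, are shown with the match in capitals. ATF3 lies on the plus strand of chr1:212565157-212565406 and ASNS, asparagine synthetase, on the minus strand of chr7:97872409-97872658, from RefSeq on GRCh38.p14.
ATF3: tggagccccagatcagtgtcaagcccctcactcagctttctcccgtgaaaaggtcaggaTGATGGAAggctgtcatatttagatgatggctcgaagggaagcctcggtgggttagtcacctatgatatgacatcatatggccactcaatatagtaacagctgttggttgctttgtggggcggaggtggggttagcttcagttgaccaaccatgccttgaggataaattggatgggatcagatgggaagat
ASNS: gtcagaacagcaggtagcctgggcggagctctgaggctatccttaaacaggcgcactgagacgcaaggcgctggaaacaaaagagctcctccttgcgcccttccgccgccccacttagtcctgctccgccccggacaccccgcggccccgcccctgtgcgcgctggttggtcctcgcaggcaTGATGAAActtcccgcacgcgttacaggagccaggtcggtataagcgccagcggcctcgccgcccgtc
The match began 191 bases before the start in ATF3 and 68 bases before it in ASNS. ASNS, named here because of its match, rose from 5996, 5550 and 4731 to 16534, 11989 and 14713 (1.40, adjusted p = 5.41e-06). PPP1R15B, BCAT1 and GOT1 held a match and did not pass the test (-0.22, 0.06 and 0.19).

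Most sterol synthesis genes rose. Cells sense sterols in the ER, where INSIG proteins hold back the SREBP factors that drive the enzymes of the pathway and the LDL receptor. Of 20 tested enzymes 13 rose and 1 fell, and of 11 genes of regulation or uptake 8 rose and 1 fell, with a median over both of 0.61. MSMO1, a demethylase of the late pathway, was at 986, 969 and 955 in untreated libraries and at 3972, 2803 and 3314 at 24 h (1.78, SE 0.15, adjusted p = 1.94e-06). TM7SF2, a sterol reductase, rose from 144, 91.4 and 183 to 570, 694 and 654 (2.24, adjusted p = 5.06e-06). Of the regulators, INSIG1 rose from 2428, 2301 and 2384 to 6462, 6114 and 7600 (1.50, adjusted p = 3.88e-06) and the factor SREBF2 from 4382, 4350 and 4736 to 6470, 5467 and 6624 (0.46, adjusted p = 0.000742). SREBF1, the paralog tied to fatty acid synthesis, did not pass (-0.18, adjusted p = 0.232). The sterol response element TCACNCCAC was found before the start of 1 of 24 matched genes of this list (4.17%), SREBF2, and of 0.79% of the tested genes. In the separate fatty acid and lipid list 9 of 24 genes rose, 3 fell and 12 were not called, with a median of 0.25. Over all tested genes 23.8% rose and 26.4% fell. From this list, ACSS2, which makes acetyl-CoA from acetate, rose from 904, 816 and 1050 to 4880, 3782 and 3793 (2.17, adjusted p = 1.84e-07). FADS1, a fatty acid desaturase, rose from 6660, 6271 and 6873 to 11520, 19297 and 16478 (1.22, adjusted p = 4.85e-05).

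Most genes that fold cytosolic proteins fell. Of 20 tested heat shock genes 15 fell and 0 rose, and the median log2 fold change was -0.97. HSPA8, the constitutive chaperone HSC70, went from 129831, 121651 and 123231 to 19700, 32055 and 35738 (-2.14, SE 0.17, adjusted p = 1.65e-06), and 24 h replicate 1 was the lowest library (-1.88 without it). HSP90AA1, the inducible HSP90, fell from 63116, 60847 and 59709 to 24069, 23767 and 27352 (-1.29, adjusted p = 1.03e-06), and DNAJA1, a co-chaperone of HSC70, from 14855, 14242 and 14639 to 4090, 5888 and 6281 (-1.45, adjusted p = 2.29e-06). HSPA1A, the inducible HSP70, was low in all libraries, at 153, 144 and 120 and then 36.4, 47.2 and 30.5 (-1.86, adjusted p = 0.011), and can trade reads with its near copy HSPA1B. All 8 subunits of the CCT chaperonin, which folds actin and tubulin, fell, from -1.15 for TCP1 to -0.26 for the least changed on the log2 scale, and 8 of 13 tubulin genes fell and 4 rose. With quantile normalization 5 of the CCT subunits were called. TUBB4B, an abundant beta tubulin, went from 18604, 19149 and 18945 to 7717, 7830 and 8090 (-1.26, adjusted p = 8.39e-08), whereas TUBB2B, a beta tubulin best known from neurons, rose from 149, 153 and 154 to 1559, 783 and 1190 (2.89, adjusted p = 9.65e-07).

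Heat shock factors bind repeats of nGAAn units, and a pair of these in opposite orientation reads GAANNTTC, which is its own reverse complement. The letters were present before the start of 6 of 19 matched genes of the list (31.6%) and of 3.96% of all 10511 tested genes with a promoter. Those of 3 genes that fell are shown from RefSeq on GRCh38.p14 with each match in capitals: HSPA8 on the minus strand of chr11:123062137-123062386, DNAJA1 on the plus strand of chr9:33025023-33025272 and HSPA1A on the plus strand of chr6:31815293-31815542.
HSPA8: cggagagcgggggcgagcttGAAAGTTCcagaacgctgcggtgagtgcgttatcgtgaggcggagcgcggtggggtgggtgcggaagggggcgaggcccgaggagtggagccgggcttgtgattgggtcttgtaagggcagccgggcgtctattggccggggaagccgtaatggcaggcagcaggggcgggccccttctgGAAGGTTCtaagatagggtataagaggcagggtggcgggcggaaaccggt
DNAJA1: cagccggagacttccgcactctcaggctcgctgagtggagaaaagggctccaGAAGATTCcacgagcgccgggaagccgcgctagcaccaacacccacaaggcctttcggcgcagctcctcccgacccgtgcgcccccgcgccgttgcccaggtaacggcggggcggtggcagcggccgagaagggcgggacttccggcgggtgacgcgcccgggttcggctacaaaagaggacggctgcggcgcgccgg
HSPA1A: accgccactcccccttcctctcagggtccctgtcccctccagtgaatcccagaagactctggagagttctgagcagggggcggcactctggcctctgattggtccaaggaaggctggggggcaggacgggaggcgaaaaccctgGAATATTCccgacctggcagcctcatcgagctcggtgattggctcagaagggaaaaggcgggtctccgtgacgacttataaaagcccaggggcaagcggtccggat
HSPA8 held 2 matches, which began 230 and 50 bases before the start, and the other two promoters held 1 each. DNAJB6 also held a match and fell (-0.55, adjusted p = 0.000142), and HSPA1B and HSPB1 held one and did not pass the test (-1.20 and -0.22).

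Of 31 proteasome genes, 29 fell and 0 rose, with a median of -0.65. PSMC2, an ATPase of the regulatory particle, was at 14021, 13340 and 13132 in untreated libraries and at 5182, 5731 and 6045 at 24 h (-1.26, SE 0.08, adjusted p = 4.11e-07), and PSME3, a subunit of the nuclear activator cap, went from 16454, 15212 and 17287 to 4494, 6678 and 7578 (-1.42, adjusted p = 1.19e-05). In the ER, 9 of 14 chaperones fell, such as CALR, calreticulin, from 41308, 41334 and 44352 to 22138, 21801 and 22556 (-0.93, adjusted p = 1.02e-06), and 2 rose. ERN1, the ER stress sensor IRE1, rose from 432, 319 and 642 to 1178, 1060 and 1160 (1.34, adjusted p = 0.000159), and its target factor XBP1 did not pass (-0.11, adjusted p = 0.474). Lysosome and autophagy genes were split, with 17 of 47 higher and 13 lower, against 23.8% and 26.4% of all tested genes. WIPI1, which binds the early autophagosome membrane, rose from 155, 138 and 143 to 765, 681 and 655 (2.26, adjusted p = 6.84e-07), and LAMP1, the abundant lysosomal membrane protein, fell from 5009, 4790 and 5250 to 2019, 2912 and 2854 (-0.97, adjusted p = 2.85e-05).

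**Figure D3:**
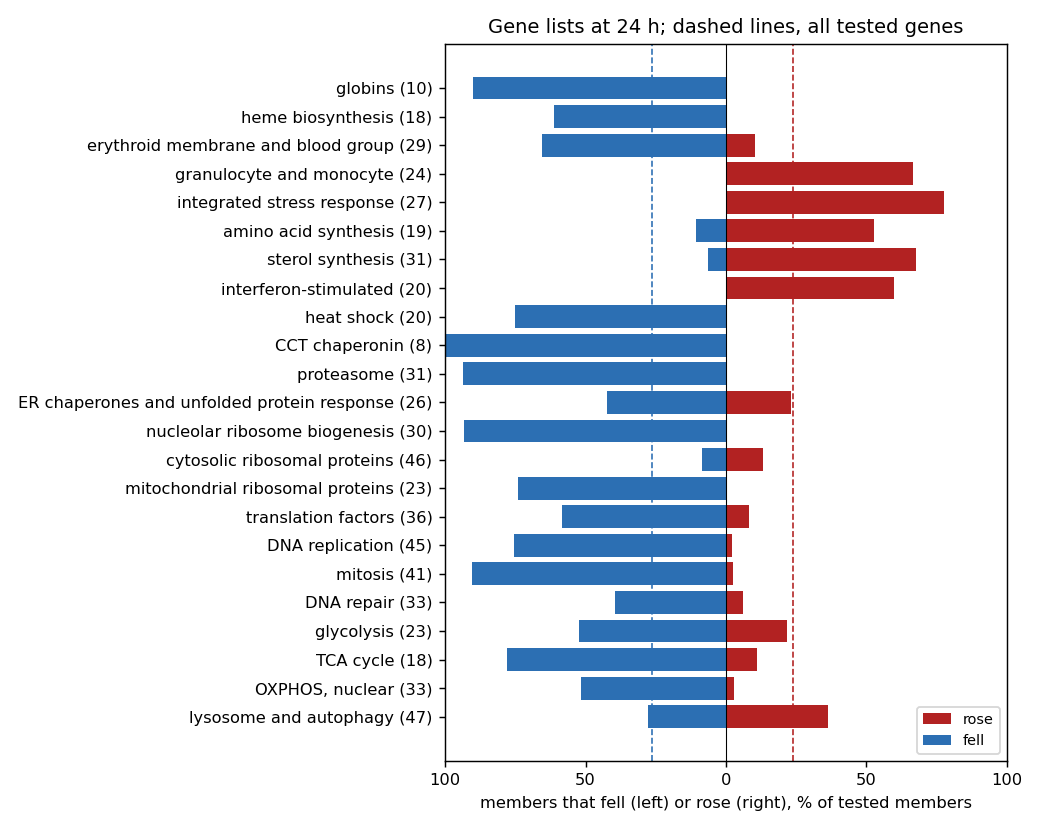
Bars give the share of tested members that fell (blue, left) or rose (red, right) in 23 gene lists, with the number of tested members in parentheses. The dashed lines mark 23.8% rising and 26.4% falling among all 14533 tested genes. List members were chosen with earlier results of these data known. The CCT chaperonin, proteasome, nucleolar, mitosis and globin bars reach furthest left, and that of the integrated stress response furthest right.

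MYC and most nucleolar genes fell. MYC was at 17585, 18109 and 18389 in untreated cells and at 6798, 8393 and 11430 at 24 h (-1.05, adjusted p = 0.000566), highest in replicate 3 among the 24 h libraries. MLXIPL, the glucose-sensing member of the extended MYC network, rose from 72.5, 68.2 and 77.8 to 435, 359 and 302 (2.30, adjusted p = 3.75e-06), and MYCL, a MYC paralog, from 186, 211 and 182 to 1202, 728 and 803 (2.20, adjusted p = 2.97e-06). Of 30 nucleolar genes that assemble ribosomes, 28 fell and 0 rose, with a median of -0.93. GRWD1, a factor of ribosome assembly, went from 4888, 5123 and 5617 to 1144, 1512 and 1856 (-1.82, SE 0.17, adjusted p = 3.95e-06), and UTP20, of the small subunit processome, from 4204, 4303 and 4381 to 1091, 1254 and 1518 (-1.75, adjusted p = 1.03e-06). The E-box CACGTG, which MYC binds with MAX, occurred before the start of 1 of 24 matched nucleolar genes (4.17%), UTP20, and of 8.9% of the tested genes. ODC1, the first enzyme of polyamine synthesis and a known MYC target, went from 30177, 28864 and 27344 to 8678, 9632 and 12138 (-1.52, adjusted p = 4.10e-06), and SAT1, which breaks polyamines down, from 937, 1057 and 1095 to 6518, 3793 and 4149 (2.19, adjusted p = 6.86e-07).

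The parts of the ribosome and of its factors differed. Of 46 cytosolic ribosomal protein genes 6 rose and 4 fell, but 28 rose with equal totals and 35 with quantile normalization. Of 23 mitochondrial ones 17 fell and 0 rose, and with quantile normalization 11 fell and 2 rose. Of 28 initiation factor genes 18 fell and 3 rose, and over all 36 translation factors 8 rose with equal totals and 9 with quantile normalization in place of 3. Of those that fell, EIF4G2, a scaffold of initiation, went from 37853, 37047 and 40796 to 14965, 17680 and 18298 (-1.19, adjusted p = 1.14e-06). ETF1, which ends translation at stop codons, went from 17683, 17217 and 18588 to 7459, 8284 and 10092 (-1.06, adjusted p = 6.35e-06).

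Most genes of DNA replication and of mitosis fell. Of 18 genes of origins and the replicative helicase 16 fell, and of 26 genes of kinetochore, spindle and cytokinesis 25 fell, with medians of -0.79 and -0.53. Of 21 polymerase and fork genes 13 fell and 1 rose, with a median of -0.31. Of 15 mitotic kinases and cyclins 12 fell and 1 rose, with a median of -0.50. GINS3, a subunit of the helicase, was at 1616, 1669 and 1746 and then at 516, 688 and 752 (-1.38, adjusted p = 7.61e-06). RRM2, which supplies deoxynucleotides, went from 6157, 5804 and 4286 to 1508, 1079 and 1820 (-1.90, adjusted p = 2.91e-05), and PLK1, a mitotic kinase, from 7987, 8452 and 9581 to 3225, 3556 and 4294 (-1.24, SE 0.12, adjusted p = 3.75e-06). Inhibitors of cyclin-dependent kinases rose in 4 of 8 cases and fell in 1. CDKN1C, which encodes p57, went from 461, 426 and 458 to 1945, 1956 and 1535 (2.00, adjusted p = 1.66e-06), and CDKN1A, which encodes p21, from 231, 255 and 292 to 625, 545 and 648 (1.22, adjusted p = 0.000117), while CDKN1B, which encodes p27, did not pass (-0.08, adjusted p = 0.535). Among cyclins, CCNG2, which is linked to cell cycle exit, rose from 114, 91.9 and 106 to 976, 677 and 700 (2.89, adjusted p = 2.42e-07).

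Signalling and survival genes were mixed, and their counts stand beside 23.8% rising and 26.4% falling among all tested genes. In the list around BCR-ABL1 and STAT5, 7 of 24 genes rose and 8 fell, with 5 falling without untreated replicate 3 and with 11 rising and 4 falling under quantile normalization. PIM1, a survival kinase (GRCh38 chromosome 6, 37170203 to 37175426), was at 10952, 10603 and 11014 in untreated libraries and at 48187, 33195 and 33453 at 24 h (1.80, adjusted p = 1.23e-06), one of the 10 largest rises in normalized counts of all genes. SOCS1, a feedback inhibitor of JAK kinases, rose from 211, 218 and 238 to 843, 532 and 613 (1.54, adjusted p = 0.000187), and DUSP1 and FOSL1, a phosphatase and an AP-1 subunit that MAP kinases induce, fell by 1.55 and 1.26 (adjusted p = 2.73e-05 and 0.000126). Of 28 apoptosis regulators 10 rose and 4 fell. PUMA, the proapoptotic BCL2 relative encoded by BBC3, rose from 361, 365 and 336 to 1332, 919 and 1112 (1.64, adjusted p = 8.37e-06) and TNFRSF10B, the TRAIL receptor DR5, from 881, 907 and 1107 to 2860, 2004 and 2505 (1.34, adjusted p = 5.55e-06), and so did BCL2, which opposes apoptosis (134, 96 and 187 to 530, 405 and 487; 1.81, adjusted p = 0.00017). Of 20 tested interferon-stimulated genes 12 rose and 0 fell, among them HLA-E, a nonclassical class I molecule, from 639, 534 and 913 to 1957, 2498 and 1445 (1.50, adjusted p = 5.76e-05). The filter passed 20 of the 36 listed genes, and it keeps a gene of low untreated level through its 24 h values alone. With no filter 10 of 28 rose. NFKB2, which encodes the p100 precursor of noncanonical NF-kB signalling, rose from 107, 32.8 and 42.7 to 571, 299 and 328 (2.82, adjusted p = 5.12e-05), and NFKB1 fell from 1457, 1388 and 1636 to 726, 949 and 1042 (-0.73, adjusted p = 0.00632).

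The aryl hydrocarbon receptor, a ligand-activated factor, rose together with its classical target. CYP1A1, a cytochrome P450 of xenobiotic metabolism (GRCh38 chromosome 15, 74719542 to 74725610), was at 81.4, 93.3 and 103 in untreated libraries and at 1726, 2382 and 1452 at 24 h (4.29, SE 0.24, adjusted p = 1.10e-07). AHR, the receptor, rose from 196, 224 and 317 to 1428, 1102 and 1154 (2.34, adjusted p = 5.38e-06), and TIPARP, a target that modifies it, from 1128, 1335 and 1209 to 3221, 2028 and 1958 (0.94, adjusted p = 0.000341). In all, 5 of 6 tested genes of this list rose, and 3 without untreated replicate 2 or without 24 h replicate 2.

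In energy metabolism, 12 of 23 genes of glucose uptake and glycolysis fell and 5 rose. SLC2A1, the glucose transporter GLUT1, went from 3879, 3501 and 3578 to 550, 484 and 949 (-2.53, SE 0.24, adjusted p = 3.70e-06), and HK2, the first enzyme, from 4887, 4992 and 5443 to 2143, 2273 and 2722 (-1.11, adjusted p = 3.94e-06). ENO2, the enolase of neurons, rose from 73.2, 88.4 and 92.8 to 309, 464 and 314 (2.06, adjusted p = 4.80e-06), while ENO1, the ubiquitous form, fell from 119594, 119452 and 131283 to 63467, 70000 and 77045 (-0.82, adjusted p = 0.000103). Of 18 citric acid cycle genes 14 fell, such as CS, citrate synthase, from 18475, 18421 and 17377 to 9325, 10077 and 11712 (-0.81, adjusted p = 5.44e-05), but 8 fell with equal totals and 7 with quantile normalization. The NADP-linked isocitrate dehydrogenases rose instead: IDH1 went from 1558, 1485 and 1562 to 4907, 5548 and 5068 (1.75, adjusted p = 1.82e-08) and IDH2 from 1672, 1438 and 1255 to 4291, 3681 and 3683 (1.42, adjusted p = 1.61e-06). Of 33 nuclear respiratory chain genes 17 fell and 1 rose, with 8 and 5 under equal totals, 6 and 7 under quantile normalization and 11 falling without untreated replicate 3. The mitochondrial genome did not move as one. MT-CYB fell from 50278, 45901 and 44064 to 14601, 16762 and 18799 (-1.49, adjusted p = 5.35e-06), while MT-CO1 rose from 260741, 243961 and 222767 to 539152, 414422 and 414074 (0.90, adjusted p = 0.000275; -0.22 with quantile normalization) and the large ribosomal RNA MT-RNR2 from 213385, 192208 and 185501 to 596960, 406290 and 472497 (1.30, adjusted p = 4.20e-05; 0.64 with quantile normalization).

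Further large changes were seen in individual noncoding RNAs, cytoskeletal genes, snoRNA hosts and clock genes. As lists these were mixed. Of 13 clock genes 3 rose and 2 fell, of 16 snoRNA hosts 4 rose and 6 fell, and of 23 cytoskeletal genes 9 rose and 5 fell. Over all tested genes 23.8% rose and 26.4% fell. OLMALINC, a long noncoding RNA of the SCD locus, had a listed value of 0 in each untreated library and of 161, 152 and 97 at 24 h. FMNL1-DT, a divergent transcript beside the formin gene FMNL1, rose from 11.9, 11.7 and 11.9 to 194, 173 and 183 (3.84, adjusted p = 3.16e-06). ACSM3, a mitochondrial acyl-CoA synthetase, rose from 3506, 3055 and 4779 to 30693, 25353 and 23132 (2.82, SE 0.16, adjusted p = 1.09e-07), and VIM, the intermediate filament vimentin, from 18537, 18494 and 35034 to 76585, 62289 and 64230 (1.56, adjusted p = 3.88e-05). TMSB4X, a thymosin that binds actin, rose from 4296, 4787 and 6525 to 24003, 20550 and 19156 (2.05, adjusted p = 1.13e-06). NEFH, the heavy neurofilament chain, fell from 2200, 2137 and 2734 to 190, 376 and 353 (-2.99, SE 0.31, adjusted p = 7.42e-06). DANCR, a noncoding snoRNA host, fell from 6181, 6072 and 6499 to 1643, 1974 and 1919 (-1.76, adjusted p = 4.70e-06), and GAS5, another host, rose from 9127, 8927 and 7423 to 19622, 14007 and 15478 (0.94, adjusted p = 4.47e-05). Among clock genes, PER2 fell from 408, 387 and 472 to 173, 169 and 169 (-1.30, adjusted p = 4.49e-05), and BHLHE40, a clock repressor, rose from 3780, 4220 and 6368 to 16663, 14389 and 13835 (1.68, adjusted p = 3.68e-06).

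The 24 h state was placed between its neighbours by separate tests on the same 14533 genes, which share the 24 h libraries with the comparison above. Against 8 h, 1300 genes were higher (8.95%) and 1536 lower (10.6%), and against 24 h, 3825 were higher (26.3%) and 4153 lower (28.6%) at 48 h. The first total, 2836, was 1449 without 24 h replicate 1, 1655 without 8 h replicate 1 and 1451 without 8 h replicate 3. With equal totals 1785 genes were higher and 6559 lower at 48 h than at 24 h. In the sterol list 22 of 31 members were higher at 24 h than at 8 h and 1 lower. INSIG1 differed by 1.34 (adjusted p = 0.00022) and MSMO1 by 1.60 (adjusted p = 0.000132). In the integrated stress response list 12 of 27 were higher than at 8 h, and at 48 h 12 were lower than at 24 h and 7 higher. DDIT4, an inhibitor of mTORC1, was the abundant example, with a difference of 1.12 from 8 h to 24 h (adjusted p = 0.00427) and of -2.73 from 24 h to 48 h (adjusted p = 5.21e-07).

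On the deposited scaling, the medians of the heat shock and proteasome lists were lowest at 24 h. In the 24 h libraries they were -1.067, -0.874 and -0.772 for heat shock genes, against -0.565 to -0.416 at 8 h and -0.542 to -0.093 at 48 h. Of 20 heat shock genes 10 were lower at 24 h than at 8 h and 0 higher, and 11 were higher at 48 h than at 24 h and 3 lower. HSP90AA1 differed by -0.67 from 8 h to 24 h (adjusted p = 0.000974) and by 1.40 from 24 h to 48 h (adjusted p = 2.30e-07), and HSPA6, a strictly inducible HSP70, by 4.78 over the second interval (adjusted p = 3.62e-08). Of 31 proteasome genes 24 were lower at 24 h than at 8 h, and 21 were higher and 5 lower at 48 h. Nucleolar genes had 22 of 30 lower at 24 h than at 8 h, and at 48 h 12 were lower still and 4 higher. Of 46 cytosolic ribosomal protein genes 44 were higher at 48 h than at 24 h, as with RPL3, which differed by 1.14 (adjusted p = 1.00e-06). All of these counts depend on scaling. With equal totals the median difference of all tested genes from 24 h to 48 h was -0.44 in place of -0.06. On the deposited scaling, the median difference from 24 h to 48 h was 0.37 for proteasome genes and 0.55 for heat shock genes. The proteasome value is about the size of that shift of all tested genes, so the proteasome minimum may rest on the scaling. The lists were not compared between these times with equal totals, so whether any 24 h minimum holds there was not tested.

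**Figure D4:**
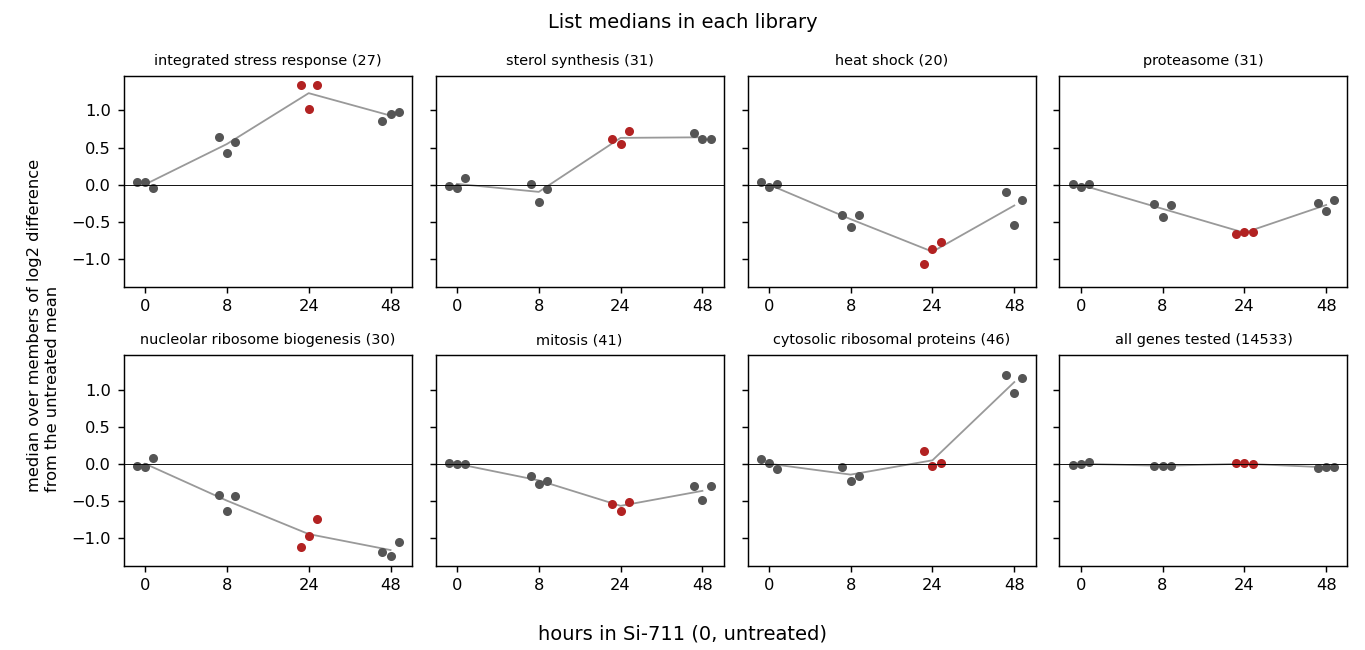
Each point is 1 library, with the median over the tested members of a list of the log2 difference from the untreated mean, against hours in Si-711. The gray line joins group means and the 24 h libraries are red, and the last panel gives all 14533 genes. On the deposited scaling shown, the heat shock, proteasome and mitosis medians are lowest at 24 h. The sterol median departs from 0 between 8 h and 24 h, and the ribosomal protein median does so between 24 h and 48 h.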

How the data were processed

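RNA of K-562 cells was sequenced from 12 libraries in 4 groups of 3 (0, 8, 24 and 48 h in 5 µM Si-711). The deposited values are a signal, gene counts normalized with DESeq2 by the authors from Salmon estimates on GRCh38 after trimming with cutadapt, per the submitters' processing notes; versions, the annotation and the Salmon settings are not given in the sources used here. Raw counts were not analysed here, the values are not whole reads, and depth in reads is therefore unknown, so no counting intervals are given. Size factors differ by library, so totals of 27070528 to 31718907 normalized counts are not depths.

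Genes that reached 10 in 3 or more of the 6 untreated and 24 h libraries were kept (14533 of 51112). The values were tested as log2(value + 1) with limma 3.58.1 (R 4.3.3, trended prior, 1 fit over the 4 groups, two-sided), and p-values were adjusted by the Benjamini-Hochberg method over all 14533 genes. Fold changes are on the log2(value + 1) scale and understate those of low genes. Other tables and figures were made with Python 3.11.15, pandas 2.3.3 and matplotlib 3.10.9. The procedure was tested on simulated data. The labels call replicates biological and do not say how cultures were separated. Symbols came from a name table and GENCODE 29, which was also used for coordinates and gene classes.

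The text names the largest rises and falls, the leading members of each list and transcription factors whatever their result; genes with a promoter match were named for that match. Members of the lists, 55 in all with 1306 genes of which 1155 were tested, were chosen with earlier results of these data known, and 31 listed genes were not analysed here. Promoters were the 250 bases before the start in RefSeq (GRCh38.p14), matched by symbol for 10511 tested genes. Alternatives covered the value added, filters, scaling, the replicate block, the prior, the threshold and leaving out each library.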

Additional observations from a re-analysis of the deposited data

How the results depend on the processing

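With totals made equal, 513 genes fell by 2-fold or more in place of 832. At an adjusted p under 0.01, 1034 genes differed between 24 h and 8 h in place of 2836. MT-CO1 changed sign with quantile normalization (-0.22), and the cause was not tested. Leaving out 1 library at a time gave 2985 to 3146 risen and 3366 to 3623 fallen genes, 1493 to 1659 and 634 to 936 by 2-fold or more, 1449 to 2495 between 24 h and 8 h and 6978 to 7825 between 48 h and 24 h; fewer samples entered each of these fits. With quantile normalization 1306 genes rose and 1128 fell by 2-fold or more, and with median centring 2998 rose and 4401 fell in all. With no filter on low values 3352 rose and 3694 fell of 26260. Of 5604 pairs of a named gene and a setting, 5415 kept direction and call and 188 lost the call. Of 879 pairs of a list and a setting, the list's median moved by more than 1 SD of its values in the 24 h libraries in 171 and by less in 708, and it stayed within this spread under every setting for 3 of 55 lists. With equal totals 6 list medians took the other sign.

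Untreated and 24 h replicates share numbers. The deviations of same-numbered libraries correlated at 0.0892, 0.023 and 0.135, and the main fit did not take the numbers to pair the samples. With the replicate number as a block, 3515 genes rose and 3944 fell, 1702 and 840 by 2-fold or more, and 3009 and 8089 differed from 8 h and from 48 h. Each untreated library correlated best with the 24 h library of its own number, for untreated replicate 2 by little (0.023 against 0.0207). Among the 24 h libraries, replicate 2 did not, and correlated at 0.0516 with untreated replicate 1.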
